A study of Mus musculus with 24 samples.

Results

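Genomic imprinting was examined through 36 imprinted genes, the rows of a fixed list of gene symbols that were present in the RNA count files, out of 55291 genes and 56326 rows in all, which include 1035 repeat families. The genes were counted in total RNA, so that a value is the sum of both parental alleles. Total RNA-seq had been made from mouse preimplantation embryos of the BDF1 strain (given as BDF2 in the sample records), from 8-week-old parents. Zygotes were injected in the male pronucleus with antisense oligonucleotides (ASOs) at 20 µM, either 3 mixed ASOs against the endogenous retrovirus MERVL (MERVL-KD) or a scrambled ASO (control), and were harvested as 2-cell, 4-cell or 8-cell embryos. The 2-cell embryos were collected at 1.5 days post coitum (dpc), and both the 4-cell and the 8-cell embryos are recorded at 2.5 dpc. Each of the 6 groups had 2 libraries, each a pool of 30 embryos, so that embryos cannot be compared within a library. All embryos, control included, had been injected with an oligonucleotide and cultured, and no uninjected embryo was part of the 12 libraries used.

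An imprinted gene is transcribed mainly from the allele of a given parent, because DNA methylation or histone marks set in the egg or the sperm differ between the alleles. These marks survive the reprogramming that follows fertilization. ZFP57 binds the methylated hexamer TGCCGC at imprinting control regions and recruits TRIM28, SETDB1 and DNA methyltransferases, which keep the mark. Imprinted genes lie in clusters, many of which hold a long noncoding RNA that silences its neighbours in cis, as Kcnq1ot1 does in the Kcnq1 cluster and Airn at Igf2r. Many of the proteins act on growth and on the placenta. At the 2-cell stage RNA stored in the oocyte is being degraded while the embryonic genome is switched on, and MERVL is among the most strongly transcribed elements at that time.

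Promoter sequences of 30 of the 36 genes were found in the RefSeq promoter table (GRCm38.p6), each window running from 250 bases before to 50 bases after a transcription start. Sgce, Cdkn1c, Peg10, Peg13, H19 and Impact had no entry. The hexamer TGCCGC, searched on both strands (GCGGCA on the other), was found in 11 of the 47 windows (23.4%), belonging to 10 genes (Mest, Nap1l5, Mcts2, Nnat, Zim1, Igf2, Plagl1, Grb10, Commd1 and Meg3), and 11.6% of all 32851 promoter windows of the same length held it. Windows of a gene can overlap, and the Mest windows that start at 30737800 and 30737803 held the same hexamers and were counted separately. The windows of the imprinted genes held a median of 16 CpG dinucleotides, against 7 over all windows. The hexamer itself holds a CpG, and the shares were not adjusted for CpG content. A match is a description of the letters and not a bound site. The windows of 4 genes that recur in the results are given with the hexamer or its complement in capitals. Plagl1 (chr10:13090582-13090881, plus strand), Commd1 (chr11:22982235-22982534, minus strand) and Mest (chr6:30737800-30738099, plus strand) held it, and Kcnq1ot1 (chr7:143296498-143296797, minus strand) had no match in this window.
Plagl1: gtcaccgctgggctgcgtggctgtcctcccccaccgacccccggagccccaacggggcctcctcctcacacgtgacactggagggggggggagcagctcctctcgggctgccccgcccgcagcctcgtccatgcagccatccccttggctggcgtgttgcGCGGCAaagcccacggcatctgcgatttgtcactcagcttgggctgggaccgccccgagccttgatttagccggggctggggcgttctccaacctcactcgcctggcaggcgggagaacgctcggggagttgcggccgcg
Commd1: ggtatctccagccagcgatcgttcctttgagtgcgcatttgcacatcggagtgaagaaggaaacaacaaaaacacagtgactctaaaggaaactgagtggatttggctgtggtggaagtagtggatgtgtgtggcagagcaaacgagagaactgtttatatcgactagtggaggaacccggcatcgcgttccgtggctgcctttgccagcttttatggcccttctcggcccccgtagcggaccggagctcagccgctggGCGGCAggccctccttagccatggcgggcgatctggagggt
Mest: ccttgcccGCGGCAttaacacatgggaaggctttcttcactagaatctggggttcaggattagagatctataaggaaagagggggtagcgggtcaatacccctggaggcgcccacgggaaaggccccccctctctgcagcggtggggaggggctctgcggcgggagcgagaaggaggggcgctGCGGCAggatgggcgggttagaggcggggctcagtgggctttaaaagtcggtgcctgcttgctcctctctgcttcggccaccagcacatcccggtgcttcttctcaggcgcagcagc
Kcnq1ot1: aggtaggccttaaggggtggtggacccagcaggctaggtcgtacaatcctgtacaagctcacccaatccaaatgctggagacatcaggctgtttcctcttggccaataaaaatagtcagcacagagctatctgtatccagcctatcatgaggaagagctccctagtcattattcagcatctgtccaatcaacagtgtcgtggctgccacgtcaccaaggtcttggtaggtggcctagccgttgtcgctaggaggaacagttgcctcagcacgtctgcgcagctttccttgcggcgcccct

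The libraries held 28.2 M to 41.5 M counts. MERVL-int, the internal region of the knocked-down element, took 6.33% and 6.57% of the counts in the 2-cell control libraries and 0.143% to 0.157% in the MERVL-KD libraries, and its log2 fold change was −5.72, −5.53 and −5.40 at the 3 stages. Among marker genes, the summed level of 5 oocyte transcripts (Gdf9, Bmp15, Zp3, Oosp1, Mos) was 1005 to 1062 CPM (counts per M counts of the TMM-scaled library) in 2-cell controls, 626 to 721 CPM in 2-cell MERVL-KD embryos and 62.9 to 88.9 CPM in all later libraries. Markers of cumulus or granulosa cells summed to at most 4.23 CPM over 8 genes and those of sperm to at most 1.4 CPM over 4 genes in every library. Erythroid markers (Hba-a1, Hbb-bs, Alas2) summed to 0.794 to 1.7 CPM in 4-cell controls and 4.61 to 8.08 CPM in 4-cell MERVL-KD embryos, with Hbb-bs at 0 in both MERVL-KD libraries. In bulk RNA, fewer cells of a kind and less RNA per cell cannot be told apart.

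Igf2r, the receptor that clears the growth factor IGF2, was the most abundant imprinted RNA of 4-cell and 8-cell embryos. Per kilobase of exon, its level in controls was 12.2 ± 0.241 CPM per kb (mean ± SD, n = 2 libraries) in 2-cell embryos, 143 ± 0.698 in 4-cell and 150 ± 0.762 in 8-cell embryos. Igf2r alone made up 18.4% to 20.2% of the summed CPM of the 36 genes in the 4 2-cell libraries and 71.7% to 80.2% in the 8 later libraries. In 2-cell controls the order per kilobase was led by Zrsr1, a retrogene related to the splicing factor gene Zrsr2, at 15.5 ± 3.25 CPM per kb. Igf2r, Mcts2 (11.1 ± 0.652), Jade1 (9.91 ± 0.127) and Phlda2 (9.82 ± 2.99) came next, and the SD of Zrsr1 and of Phlda2 reached their neighbours. At the 4-cell stage the second level was that of Phlda2, which limits placental growth, at 12.7 ± 10.0 CPM per kb, so that its place was not separable from Jade1 (8.33 ± 0.584) or Mcts2 (6.26 ± 0.729). At the 8-cell stage Phlda2 (15.4 ± 6.18), Jade1 (9.93 ± 1.57), Impact (7.37 ± 0.113) and Mcts2 (7.32 ± 0.802) followed Igf2r. Phlda2 was at 13.4 and 8.64 CPM in the 2-cell control libraries, 6.24 and 22.1 CPM at the 4-cell stage and 22.2 and 12.4 CPM at the 8-cell stage. In MERVL-KD embryos Phlda2 was at 8.69 and 7.06, 32.3 and 46.0, and 33.6 and 22.9 CPM at these stages, and none of its comparisons passed the test (at the 4-cell stage log2 fold change 1.48 ± 0.69 SE, edgeR adjusted p = 0.32).

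**Figure D1:**
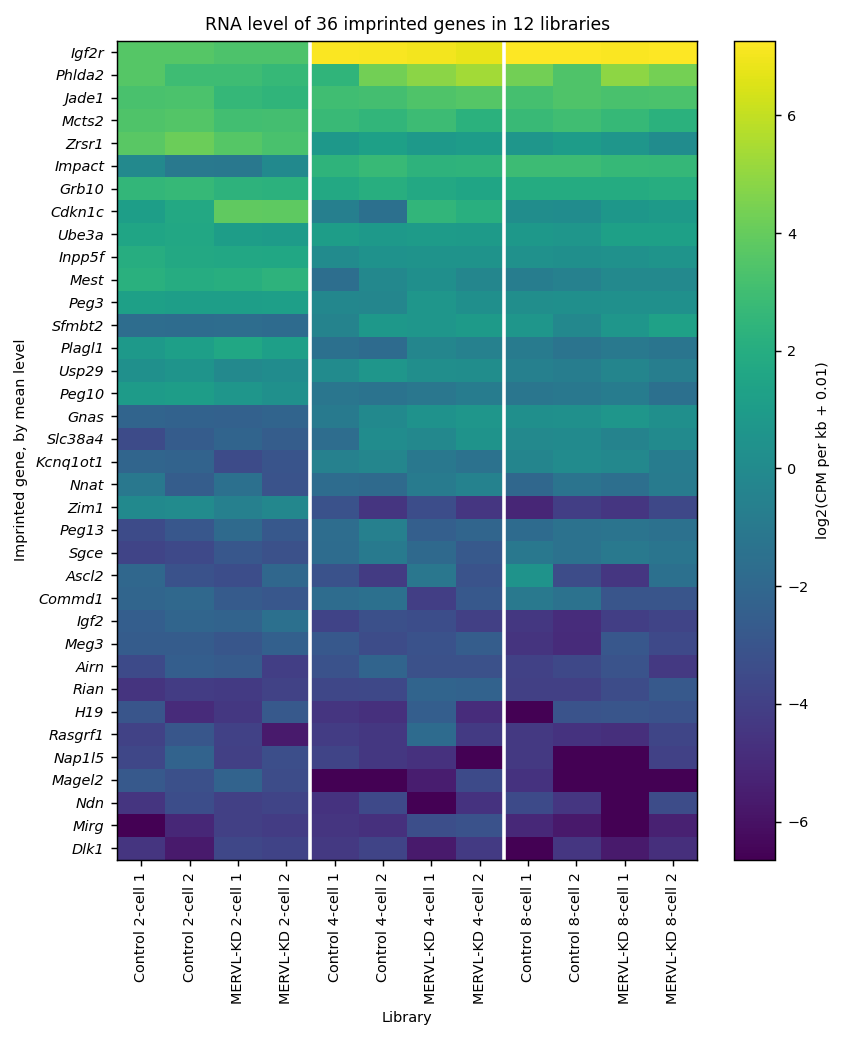
Level of each imprinted gene (rows, ordered by mean level) in each of the 12 libraries (columns; controls and MERVL-KD embryos of the 2-cell, 4-cell and 8-cell stages), as log2 of CPM per kilobase plus 0.01, by colour. Igf2r leads from the 4-cell stage on, Zrsr1, Mest, Plagl1 and Zim1 are brighter at the 2-cell stage, and Cdkn1c is brighter in the 2-cell and 4-cell MERVL-KD libraries than in their controls.

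At the other end of the range, 6 genes had under 30 counts in every library. Airn, the noncoding RNA antisense to Igf2r, had 7 to 29 counts, Mirg 0 to 26, Dlk1, a Notch ligand, 0 to 16, H19 0 to 15, Nap1l5 0 to 14 and Ndn, the MAGE protein necdin, 0 to 12. Of the 36 genes, 28 had enough counts to be tested in each of the 3 comparisons of MERVL-KD with control, 5 in some of them and 3 (H19, Nap1l5 and Ndn) in none. Igf2, the fetal growth factor, had 4 to 70 counts, and its exons share 62.8% of their bases with Gm49394, a model on the same strand, so that its reads could be split between these rows. The 2 libraries of a group agreed least in 4-cell controls, where 5 of the 24 genes with a mean count of at least 30 differed at least 2-fold (Mest, Peg13, Phlda2, Sfmbt2 and Slc38a4), each lower in replicate 1. In the other groups 0 to 2 genes did so.

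Between the 2-cell and the 4-cell stage of control embryos, 8 of the 31 imprinted genes tested rose and 9 fell by at least 2-fold with an adjusted p under 0.05 (called), where 23.3% of all genes tested, repeat families left out, rose and 26.7% fell. At any fold 20 passed, against 61.9% of all genes. The median log2 fold change of the 31 genes was −0.49, that of all genes −0.03. Igf2r rose most in this group, from 115 and 112 CPM in the 2-cell control libraries to 1330 and 1320 CPM at the 4-cell stage (log2 fold change 3.57 ± 0.08 SE, edgeR adjusted p = 1.22e-12). Impact, an inhibitor of the kinase GCN2, rose from 4.78 and 2.48 CPM to 27.1 and 34.4 CPM (3.11 ± 0.25). Kcnq1ot1 rose from 21.0 and 19.5 CPM to 64.7 and 76.6 CPM (1.82 ± 0.14, adjusted p = 6.06e-08). For these 3 genes, picked by their calls, every 4-cell value lay above every 2-cell value. The share of all genes separated in this way was not computed. At the 8-cell stage the 3 genes stood at 1390 and 1400, 37.4 and 38.2, and 74.9 and 97.0 CPM.

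Lower in abundance, Gnas, the locus of the stimulatory G protein alpha subunit, rose from 2.39 and 2.26 to 6.01 and 11.1 CPM (log2 fold change 1.90 ± 0.29 SE) and was at 14.0 and 14.4 CPM at the 8-cell stage. Sgce, the epsilon-sarcoglycan gene, went from 0.669 and 0.770 to 3.06 and 5.48 CPM (2.58 ± 0.40) and then to 4.89 and 3.95 CPM. Both genes, picked by their calls, had separate 2-cell and 4-cell values. Slc38a4, an amino acid transporter whose imprint in the early embryo and placenta rests on maternal H3K27me3 rather than DNA methylation, went from 0.350 and 0.660 to 1.28 and 4.65 CPM (2.54 ± 0.58) and to 3.95 and 4.18 CPM. Sfmbt2, a Polycomb-related gene of the same kind of imprint, went from 2.77 and 2.67 to 6.75 and 15.8 CPM (2.06 ± 0.38) and to 14.3 and 8.17 CPM. Of the noncanonically imprinted genes in the list, Jade1, a subunit of a histone acetyltransferase complex, did not pass at this step (−0.23 ± 0.12, edgeR adjusted p = 0.106). Peg13, a noncoding RNA within Trappc9, went from 0.382 and 0.605 to 1.45 and 3.12 CPM (2.21 ± 0.56) and to 1.30 and 1.74 CPM. Its call was lost without replicate 2 of the 4-cell controls (1.58, adjusted p = 0.0573).

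The genes that fell came from several clusters. Zrsr1 fell from 59.2 and 79.8 CPM in the 2-cell controls to 7.49 and 10.8 CPM (log2 fold change −2.91 ± 0.20 SE, edgeR adjusted p = 2e-08), and was at 7 and 9.21 CPM at the 8-cell stage. Mest, a hydrolase-like protein of mesoderm, fell from 17.6 and 15.4 to 1.25 and 3.54 CPM (−2.79 ± 0.37). At the 8-cell stage it was at 2.32 and 2.71 CPM, and 23.1% of its exonic bases overlap Copg2 on the opposite strand. Plagl1, the zinc finger factor Zac1 that regulates a network of imprinted genes, fell from 13.8 and 17.8 to 2.72 and 2.19 CPM (−2.65 ± 0.27) and was at 4.31 and 3.08 CPM at the 8-cell stage. These genes were picked by their calls, and no 4-cell value reached a 2-cell value of the same gene. Cdkn1c, the CDK inhibitor p57Kip2, fell from 4.49 and 6.93 to 1.30 and 0.694 CPM (−2.47 ± 0.41) and was at 2.25 and 2.18 CPM at the 8-cell stage. Peg10, a retrotransposon-derived gene needed in placenta, fell from 13 and 14.3 to 2.84 and 2.57 CPM (−2.31 ± 0.25) and was at 2.83 and 3.08 CPM in 8-cell embryos. Inpp5f, an inositol phosphatase, fell from 33.1 and 27.5 to 8.56 and 11.4 CPM (−1.58 ± 0.19) and was at 10.9 and 10.0 CPM in 8-cell embryos. In the Peg3 cluster of zinc finger genes, Peg3 fell from 32.9 and 30.5 to 11.5 and 11.2 CPM (−1.46 ± 0.15) and was at 16.0 and 16.3 CPM at the 8-cell stage, and Zim1 fell from 7.84 and 8.50 to 0.851 and 0.278 CPM (−3.78 ± 0.50) and was at 0.145 and 0.402 CPM at the 8-cell stage. The oocyte transcripts fell over the same step, and their part in these falls was not tested.

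Magel2, a MAGE family gene next to Ndn, had 20 and 16 counts in the 2-cell controls and 0 in both 4-cell control libraries. Taking 3 counts per library as the limit that a count of 0 allows, it was at least 5.7-fold lower. That limit treats each count as a separate fragment. Both mates of most pairs appear to have been counted, so that the bound is then a smaller fold. The call of Magel2 (edgeR adjusted p = 0.0124) was lost without any of the 4 libraries of these stages. Grb10, an adaptor that restrains growth signalling, Ube3a, an E3 ubiquitin ligase, and Mcts2, a retrogene within H13, passed downward at under 2-fold. Grb10 was at 53.4 and 57.6 CPM and then 30.2 and 38.8 CPM (log2 fold change −0.66 ± 0.13 SE), Ube3a at 58.8 and 66.9 and then 43.8 and 35.9 CPM (−0.63 ± 0.13), and Mcts2 at 9.75 and 10.6 and then 6.18 and 5.24 CPM (−0.80 ± 0.23). At the 8-cell stage these 3 genes were at 33.9 and 33.8, 35.7 and 33.1, and 6.16 and 7.20 CPM.

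From the 4-cell to the 8-cell stage of control embryos none of the 31 genes rose and 2 fell, where 0.604% of all genes rose and 1.38% fell; at any fold the same 2 passed, against 8.51% of all genes. Upward, 6 genes had an unadjusted edgeR p under 0.05, and DESeq2 called 0. Usp29, a ubiquitin-specific peptidase that shares its promoter region with Peg3, was at 22.7 and 26.5 CPM at the 2-cell stage, 18.9 and 28.1 CPM at the 4-cell stage and 11.7 and 10.5 CPM at the 8-cell stage (log2 fold change −1.07 ± 0.19 SE for the last step, edgeR adjusted p = 0.00409). Without replicate 2 of the 4-cell controls this fall was under 2-fold (−0.78, adjusted p = 0.0269). Meg3, the noncoding RNA of the Dlk1-Dio3 cluster, was at 2.80 and 2.78, 2.38 and 1.49, and 0.580 and 0.402 CPM (−1.98 ± 0.49, adjusted p = 0.0253). Its adjusted p was 0.141 without replicate 1 of the 4-cell controls and 0.0552 or 0.120 without replicate 1 or 2 of the 8-cell controls. Without replicate 1 of the 4-cell or of the 8-cell controls, 1 gene in place of 2 was called.

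**Figure D2:**
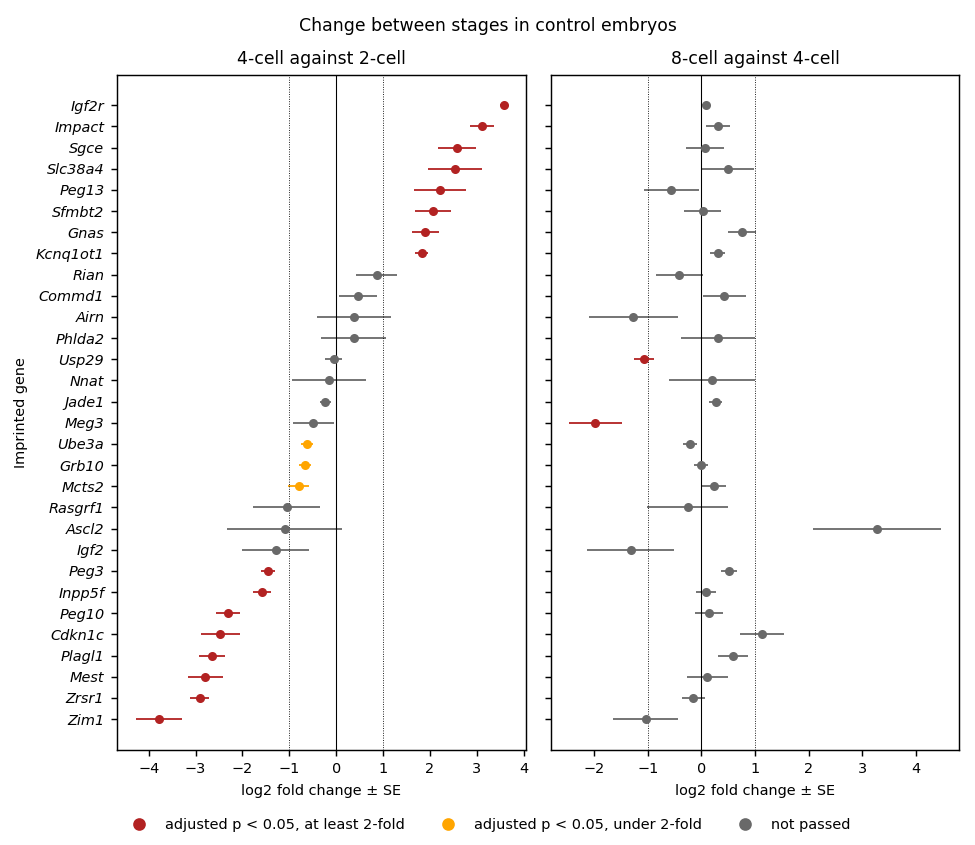
Change of 30 imprinted genes between stages in control embryos, as log2 fold change with its SE from a fit of the 6 control libraries (Magel2, with both 4-cell control libraries at 0 counts, is left out). Points are spread from Zim1 (−3.78) to Igf2r (3.57) between the 2-cell and the 4-cell stage, and between the 4-cell and the 8-cell stage the called genes are Usp29 and Meg3; the dotted lines mark 2-fold and the horizontal scales of the panels differ.

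The comparison of MERVL-KD with control embryos gives the transcripts that differed at each stage between embryos injected with MERVL ASOs and scrambled ASO. Whether a difference depended on MERVL, on ASO sites within genes or on the developmental delay the paper reports for MERVL-KD embryos was not tested. At the 2-cell stage Cdkn1c was higher and Kcnq1ot1 lower in MERVL-KD embryos, and these were the 2 genes called of 33 tested. Of all genes, 4.37% were called higher and 2.24% lower. At any fold 4 of the 33 passed (the other two were Jade1 and Ube3a), against 14.1% of all genes, and the median log2 fold change was 0.02, against 0.01 over all genes; its sign was not stable (−0.18 without replicate 2 of the controls). With library size alone in place of TMM scaling the median of all genes at this stage was 0.30, so that fold changes under this scaling are read against that shift.

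Cdkn1c (chr7:143458339-143461050, minus strand) was at 29.8 and 28.7 CPM in the 2-cell MERVL-KD libraries, against 4.49 and 6.93 CPM in controls (log2 fold change 2.43 ± 0.19 SE, edgeR adjusted p = 5.68e-07). All 4 libraries had well over 100 counts (141 and 252 in controls, 1253 and 1014 in MERVL-KD embryos). Gm44732, a model on the opposite strand, shares 30.7% of the exonic bases of Cdkn1c, and the strand setting of the counting is not given in the sources used here, so that reads of the shared bases cannot be told apart. Kcnq1ot1 (chr7:143203458-143296549, minus strand), whose transcription on the paternal allele silences Cdkn1c and its neighbours in cis, was at 7.36 and 10.4 CPM, against 21.0 and 19.5 CPM (−1.11 ± 0.19, adjusted p = 0.000843). Its fold change was −0.82 (adjusted p = 0.00506) with library size alone and −0.89 without replicate 1 of the 2-cell MERVL-KD embryos, both under 2-fold. The other genes of the cluster within the 36 were not called, Phlda2 with −0.40 ± 0.23 and Ascl2, a trophoblast transcription factor, with 6 to 14 counts a library. Imprinted genes outside the 36 are given further below. Kcnq1 itself, the potassium channel gene that Kcnq1ot1 runs antisense to, was at 5.64 and 5.61 CPM in controls and 6.41 and 5.74 CPM in MERVL-KD embryos (0.20 ± 0.23).

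Jade1 and Ube3a were lower in 2-cell MERVL-KD embryos at under 2-fold. Jade1 was at 51.8 and 46.7 CPM, against 83.4 and 85.0 CPM (log2 fold change −0.69 ± 0.10 SE, edgeR adjusted p = 0.000332). Ube3a was at 44.2 and 40.9 CPM, against 58.8 and 66.9 CPM (−0.48 ± 0.11, adjusted p = 0.00898). Neither gene, each picked because it passed, had overlapping groups, and separate groups are common with 2 libraries a group. The summed oocyte transcripts were also lower in these MERVL-KD libraries, as given above. Of the 5, Bmp15 (−0.81) and Oosp1 (−0.32) passed, and Mos (−0.27), Gdf9 (−0.26) and Zp3 (0.37, upward) did not. The part of the oocyte transcripts in these differences was not tested.

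At the 4-cell stage 3 of 30 genes tested were higher in MERVL-KD embryos (Cdkn1c, Rian and Plagl1) and none was lower, where 2.66% of all genes were called higher and 1.88% lower. Downward, 5 genes had an unadjusted edgeR p under 0.05, and DESeq2 called 0. At any fold 7 passed, 6 upward and 1 downward, against 10.8% of all genes, and the median log2 fold change was 0.27, against 0.03 over all genes. Without replicate 1 of the MERVL-KD embryos this median was 0.02, against 0.00 over all genes, and without replicate 1 of the controls it was 0.16, against 0.07. Cdkn1c was at 11.5 and 8.82 CPM, against 1.30 and 0.694 CPM in controls (log2 fold change 3.33 ± 0.35 SE, edgeR adjusted p = 0.000123). The control value had fallen since the 2-cell stage, and both differences share the 4-cell control libraries. Rian (chr12:109603808-109661716, plus strand), a long noncoding RNA that hosts small nucleolar RNAs in the Dlk1-Dio3 cluster, was at 6.89 and 6.39 CPM, against 2.21 and 2.26 CPM (1.58 ± 0.29, adjusted p = 0.00546). Plagl1 (chr10:13060504-13131694, plus strand) was at 6.39 and 5.31 CPM, against 2.72 and 2.19 CPM (1.26 ± 0.31, adjusted p = 0.0234). The groups did not overlap for any of the 3 genes, which were picked by their calls. The share of all genes separated in this way was not computed. The Plagl1 call was lost without replicate 2 of the controls (1.10, adjusted p = 0.0807) and without replicate 1 of the MERVL-KD embryos (1.11, adjusted p = 0.0848).

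In the same embryos Gnas, Peg3 and Jade1 passed upward and Kcnq1ot1 downward at under 2-fold. Gnas was at 15.2 and 17.8 CPM, against 6.01 and 11.1 CPM (log2 fold change 0.96 ± 0.27 SE, edgeR adjusted p = 0.0423), and was past 2-fold with library size alone (1.02). Peg3 was at 21.3 and 16.3 CPM, against 11.5 and 11.2 CPM (0.73 ± 0.19, adjusted p = 0.0324). Jade1 was at 91.8 and 101 CPM, against 67.2 and 74.3 CPM (0.45 ± 0.11, adjusted p = 0.0214), the direction opposite to that at the 2-cell stage. Kcnq1ot1 was at 42.8 and 33.9 CPM, against 64.7 and 76.6 CPM (−0.87 ± 0.14, adjusted p = 0.00276). These 4 genes, picked because they passed, also had groups that did not overlap, which with 2 libraries a group is common without a difference. The number of genes called moved with the libraries used, to 5 without replicate 1 of the controls, 7 without replicate 2 of the controls and 5 without replicate 2 of the MERVL-KD embryos. In the same comparison 2 of 6 genes listed as markers of the 8-cell stage were called higher. These were Krt8 (4.20 and 5.52 CPM in controls, 24.6 and 28.1 CPM in MERVL-KD embryos) and Krt18 (3.23 and 3.40, 10.2 and 7.39 CPM). The other 4 were not called (log2 fold change 1.86 for Sox2, 0.29 for Cdx2, −0.11 for Pou5f1 and −0.42 for Nanog). In 8-cell embryos none of the 6 was called, and Nanog (−0.65) and Pou5f1 (−0.68) passed downward. Between 4-cell and 8-cell controls all 6 had log2 fold changes above 0, but 1 was called (Krt8, 1.13) and Pou5f1 (0.95) passed at under 2-fold. The list therefore marks that stage weakly in these controls. Of the erythroid markers, Hba-a1 (0.312 and 1.42, 3.59 and 7.44 CPM) was called higher in 4-cell embryos. The part of these markers in the imprinted genes was not tested.

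Grouped by the allele they are known to be expressed from, 2 of 7 maternally expressed genes tested at the 4-cell stage were called higher (Cdkn1c and Rian, median log2 fold change 1.48), as was 1 of 18 paternally expressed genes (Plagl1, median 0.13). Of all genes, 2.66% were called higher at this stage. Of the maternal genes of the Dlk1-Dio3 cluster, Rian was called, Meg3 was at 1.84 and 2.98 CPM against 2.38 and 1.49 CPM (0.31 ± 0.43, edgeR adjusted p = 0.73), and Mirg had 24 and 26 counts against 9 and 6 (1.60 ± 0.79, adjusted p = 0.24). At the 2-cell stage 1 of 8 maternally expressed genes was called higher and 1 of 20 paternally expressed genes lower (medians 0.05 and 0.04). Of all genes, 4.37% were called higher and 2.24% lower there. At the 8-cell stage none of 7 and none of 17 was called (medians 0.72 and 0.09), and Commd1, the gene called at that stage, is in neither class. The classes hold 9 maternally and 22 paternally expressed genes, and the rest of the 36 are left out of both. The alleles themselves were not separated in these files, and the difference between the classes was not tested.

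At the 8-cell stage none of 29 genes was called higher and 1 was called lower, where 0.641% of all genes were called higher and 1.06% lower. Upward, 6 genes had an unadjusted edgeR p under 0.05, and DESeq2 called 0. At any fold 2 passed, against 5.06% of all genes, with a median log2 fold change of 0.14, against 0.01 (0.09 and 0.08 without replicate 1 or 2 of the MERVL-KD embryos). Commd1 (chr11:22896136-22982382, minus strand), which acts in copper homeostasis and protein turnover and holds Zrsr1 in an intron, was at 0.692 CPM in both MERVL-KD libraries, against 2.83 and 2.21 CPM in controls (log2 fold change −1.85 ± 0.44 SE, edgeR adjusted p = 0.035). These values rest on 24 and 27 counts against 78 and 66, and without replicate 1 of the controls the call was lost (−1.66, adjusted p = 0.15). At the 4-cell stage Commd1 was at 0.302 and 0.788 CPM, against 1.76 and 2.01 CPM (−1.78 ± 0.58, adjusted p = 0.0761), and at the 2-cell stage at 0.902 and 0.763 CPM, against 1.31 and 1.46 CPM (−0.64 ± 0.46, adjusted p = 0.409). At each stage both MERVL-KD values lay below both control values, and the share of all genes separated in this way was not computed. Zrsr1, on the opposite strand with 412 exonic bases in common with Commd1, was not called at any stage (−0.40 ± 0.14, −0.09 ± 0.24 and −0.43 ± 0.27).

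Ube3a was higher in 8-cell MERVL-KD embryos at under 2-fold, with 48.6 CPM in both libraries against 35.7 and 33.1 CPM (log2 fold change 0.51 ± 0.12 SE, edgeR adjusted p = 0.037). Its difference had the opposite sign at the 2-cell stage (−0.48) and was 0.01 ± 0.14 at the 4-cell stage (41.2 and 39 CPM against 43.8 and 35.9 CPM). Cdkn1c was at 3.37 and 3.92 CPM, against 2.25 and 2.18 CPM (0.73 ± 0.32, adjusted p = 0.235), and Kcnq1ot1 at 83.5 and 53.4 CPM, against 74.9 and 97.0 CPM (−0.32 ± 0.21, adjusted p = 0.479). Rian was at 2.65 and 4.41 CPM, against 1.67 CPM in both controls (1.09 ± 0.37, adjusted p = 0.125). Meg3 was at 2.28 and 1.33 CPM, against 0.580 and 0.402 CPM (1.88 ± 0.55, adjusted p = 0.0732). Neither passed. Both MERVL-KD values lay above both control values for each, which with 2 libraries a group is common without a difference. Without replicate 1 of the controls 2 genes were called at this stage, both higher, and 3 or 2 were called without replicate 1 or 2 of the MERVL-KD embryos.

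**Figure D3:**
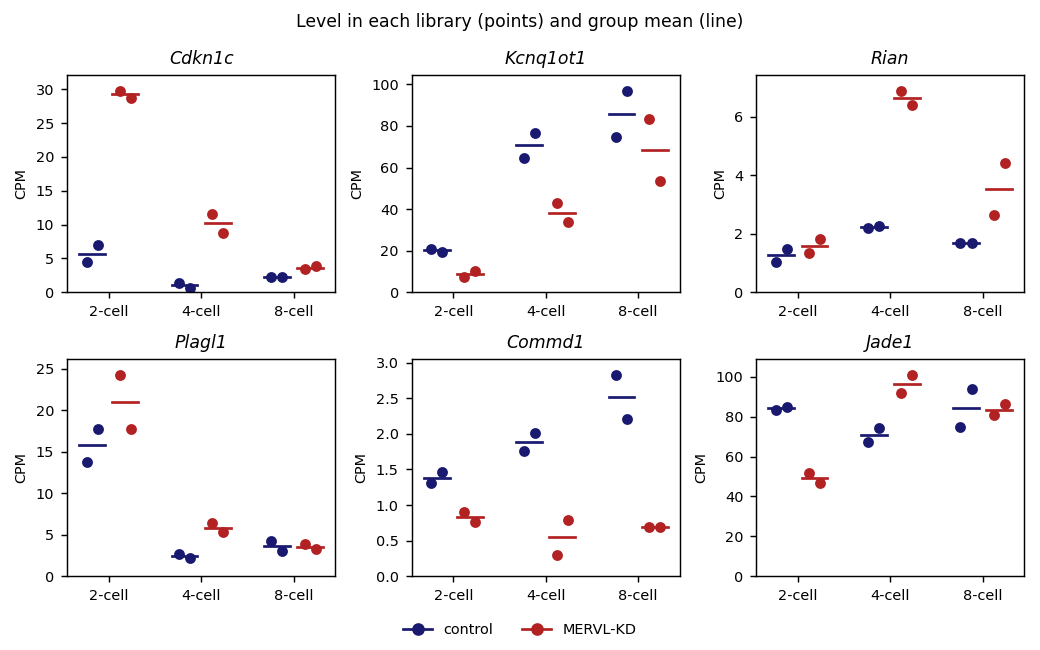
Level in CPM (vertical axes, from 0) of Cdkn1c, Kcnq1ot1, Rian, Plagl1, Commd1 and Jade1 in each library (points) with the mean of each group of 2 (lines), by stage. The Cdkn1c groups are farthest apart at the 2-cell and 4-cell stages (29.8 and 28.7 against 4.49 and 6.93 CPM at the 2-cell stage), and Jade1 is lower in MERVL-KD embryos at the 2-cell stage and higher at the 4-cell stage.

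No other gene of the list was called in MERVL-KD embryos. Igf2r was at 95.6 and 97.0 CPM in 2-cell MERVL-KD embryos (log2 fold change −0.15 ± 0.09 SE), 1230 and 1050 CPM at the 4-cell stage (−0.21 ± 0.09) and 1360 and 1430 CPM at the 8-cell stage (0.01 ± 0.07). Impact was at 2.42 and 4.86, 26.5 and 26.7, and 32.9 and 31.1 CPM (0.08 ± 0.37, −0.20 ± 0.16 and −0.23 ± 0.13). Grb10 was at 46.2 and 45.3, 30.6 and 26.7, and 34.7 and 36.5 CPM (−0.19 ± 0.11, −0.26 ± 0.16 and 0.08 ± 0.13). For these 3 genes the SE of a fold change was at most 0.37 on the log2 scale and no stage passed the test. Inpp5f was at 26.8 and 26.1, 11.7 and 11.6, and 10.7 and 12.2 CPM, Usp29 at 16.9 and 19.2, 21.1 and 20.6, and 14.6 and 10.8 CPM, and Mcts2 at 7.62 and 7.94, 6.75 and 4.26, and 5.91 and 4.25 CPM. Zrsr1 was at 55.0 and 43.9, 7.82 and 9.28, and 7.21 and 4.74 CPM, Peg10 at 10.4 and 8.48, 2.96 and 3.71, and 3.81 and 2.28 CPM, and Mest at 16.6 and 20.1, 4.77 and 3.30, and 3.63 and 3.66 CPM. None of these 6 was called at any stage.

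Among genes of lower or more variable level, Sfmbt2 was at 2.78 and 2.60 CPM in 2-cell MERVL-KD embryos, 14.4 and 17.7 CPM at the 4-cell stage and 14.2 and 22.6 CPM at the 8-cell stage. Slc38a4 was at 0.926 and 0.678, 3.76 and 6.01, and 3.09 and 4.31 CPM, and Sgce at 1.33 and 1.07, 2.72 and 1.49, and 5.10 and 4.33 CPM. Peg13 was at 1.28 and 0.622, 0.823 and 1.05, and 1.87 and 1.67 CPM. Zim1 stood at 5.37 and 6.89, 0.713 and 0.292, and 0.288 and 0.564 CPM, and Magel2 at 0.950 and 0.396, 0.0549 and 0.350, and 0 CPM in both 8-cell libraries. None of these 6 passed against controls at a stage where it was tested (Magel2 only at the 2-cell stage). The genes with a call or a pass at another stage were also measured in the rest of the MERVL-KD embryos, where they did not pass. Peg3 was at 29.9 and 30.8 CPM at the 2-cell and 17.2 and 17.0 CPM at the 8-cell stage. Plagl1 was at 24.3 and 17.8 and at 3.83 and 3.23 CPM, and Gnas at 2.11 and 2.40 and at 18.1 and 13.9 CPM at the same stages. At the 2-cell stage Rian was at 1.33 and 1.81 CPM, against 1.02 and 1.49 CPM, and Meg3 at 2.23 and 3.28 CPM. Jade1 was at 80.9 and 86.1 CPM at the 8-cell stage. Of the differences that did not pass, the largest upward was that of Mirg at the 2-cell stage (2.36 ± 1.17, 16 and 12 counts against 0 and 5). The largest downward was that of Ascl2 at the 8-cell stage (−1.94 ± 1.24, 2 and 22 counts against 64 and 4). Rasgrf1, an exchange factor for Ras, had 112 and 16 counts against 18 and 12 at the 4-cell stage (1.93 ± 0.79, edgeR adjusted p = 0.154), and Nnat, the proteolipid neuronatin, 36 and 45 against 19 and 14 (1.16 ± 0.60).

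**Figure D4:**
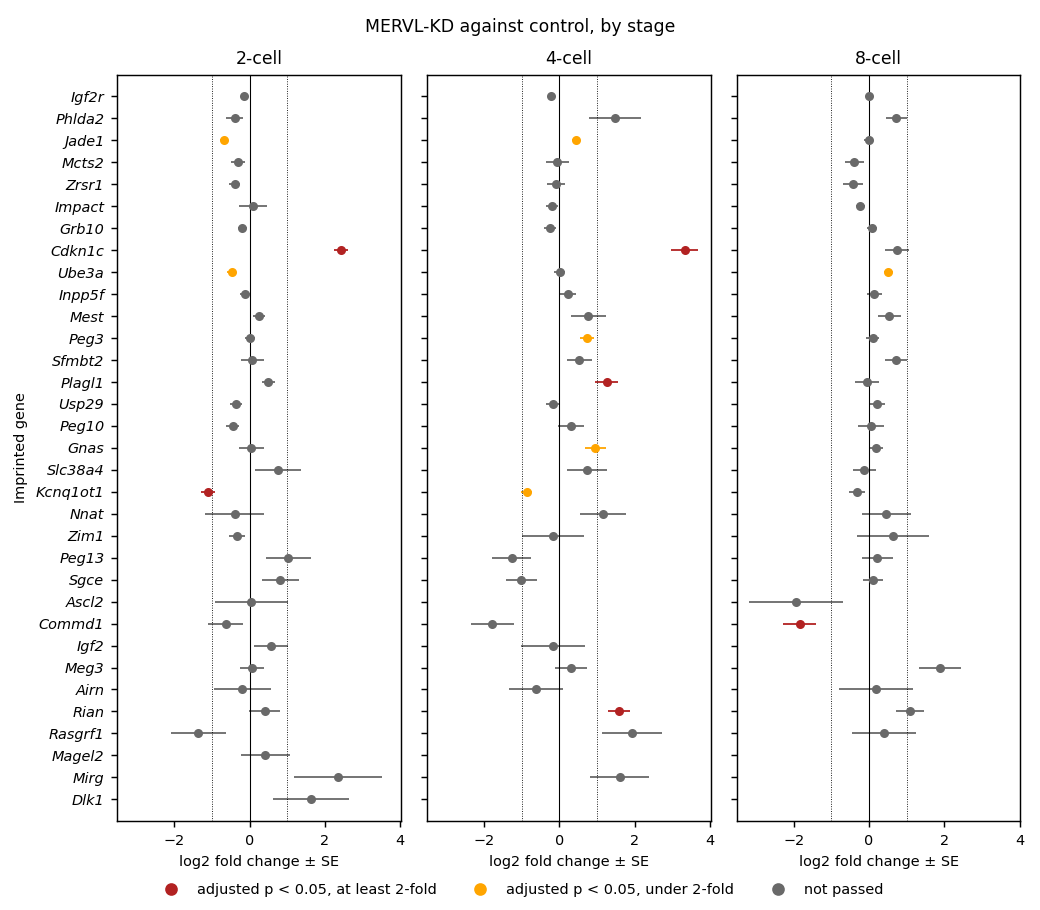
MERVL-KD against control at each stage for the 33 imprinted genes tested at any stage (rows, ordered by mean level), as log2 fold change with its SE; red points were called, orange points passed at under 2-fold, grey points did not pass, and dotted lines mark 2-fold. Cdkn1c lies at 2.43 and 3.33 at the 2-cell and 4-cell stages, and at the 8-cell stage Commd1 (−1.85) is the called gene.

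Whether the effect of MERVL-KD differed between stages was tested as an interaction over all 12 libraries. Between the 2-cell and the 4-cell stage 1 of 34 genes tested passed, where 4.16% of all genes did: the log2 fold change of Jade1 was higher at the 4-cell stage by 1.22 ± 0.17 SE (edgeR adjusted p = 0.000243). Between the 4-cell and the 8-cell stage 1 of 34 passed, where 0.624% of all genes did, and the fold change of Cdkn1c was lower at the 8-cell stage (−2.60 ± 0.42, adjusted p = 0.00549). For Kcnq1ot1 the differences between stages were 0.31 ± 0.31 and 0.55 ± 0.30 and did not pass, so that its call at the 2-cell stage alone is not shown to differ from the later stages. With other libraries the first count was 2 without either 4-cell MERVL-KD library and 4 without replicate 2 of the 4-cell controls.

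Genes that host or adjoin the imprinted genes were read beside them. The list holds some of the imprinted genes themselves, such as Igf2r, Peg3, Sgce and Commd1. At the 2-cell and 4-cell stages none of 13 tested was called by edgeR. An unadjusted edgeR p under 0.05 was reached by 1 (Trappc9) and 5 (Igf2r, Peg3, Sgce, Commd1 and Mcts1). At the 8-cell stage the called gene was Commd1, the host of Zrsr1, already counted among the imprinted genes. Of all genes, 4.37%, 2.66% and 0.641% were called higher and 2.24%, 1.88% and 1.06% lower at the 3 stages. The parent gene Zrsr2 (log2 fold change −0.23 ± 0.12, 0.18 ± 0.12 and 0.10 ± 0.13 at the 3 stages), H13 and Mcts1, the host and parent gene of Mcts2 (−0.06, 0.28 and 0.19, and −0.18, −0.74 and −0.16), and Trappc9, the host of Peg13 (−0.40, 0.07 and 0.14), were not called in MERVL-KD embryos. Herc3, the host of Nap1l5 (−0.13, 0.26 and 0.05), Blcap, the host of Nnat (−0.09, 0.25 and 0.00), Copg2 beside Mest (−0.16, −0.52 and 0.23) and Sclt1 beside Jade1 (−0.11, −0.39 and −0.07) were not called either. Kcnq1 was at 0.20, −0.36 and 0.45, and Ins2, beside Igf2, had at most 6 counts in any library. In controls between the 2-cell and the 4-cell stage 9 of the 13 were called, 3 higher and 6 lower, where 23.3% of all genes rose and 26.7% fell. Igf2r, Sgce and Peg3, given above, were among them. Of the others, Herc3 (−1.51), Blcap (−1.07), Copg2 (−2.50), Sclt1 (−2.66) and Kcnq1 (−1.84) fell and Mcts1 rose (1.29), while Mcts2 passed in the other direction.

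Factors that set or keep imprints were measured as a list of 23 genes. In MERVL-KD embryos 1 of 23, 1 of 22 and 1 of 22 tested were called at the 3 stages, and it was Arid4a each time, a chromatin protein known to act on the Snrpn imprint. Of all genes, 2.24%, 1.88% and 1.06% were called lower and 4.37%, 2.66% and 0.641% higher at these stages. Arid4a was at 48.5 and 44.6 CPM in 2-cell MERVL-KD embryos against 125 and 140 CPM in controls (log2 fold change −1.42 ± 0.10 SE), at 10.8 and 10.6 against 60.9 and 55.2 CPM at the 4-cell stage (−2.44 ± 0.14) and at 6.40 and 5.89 against 45.3 and 46.3 CPM at the 8-cell stage (−2.89 ± 0.16, edgeR adjusted p = 7.22e-07). At any fold 7, 8 and 4 of the list passed, 6, 6 and 3 of them downward, where 14.1%, 10.8% and 5.06% of all genes passed. Upward, Smchd1, a structural chromatin protein of X inactivation and imprinting, passed at the 2-cell and 4-cell stages (0.27 ± 0.09 and 0.35 ± 0.09) and Arid4b, a paralogue of Arid4a, at the 4-cell and 8-cell stages (0.57 ± 0.12 and 0.64 ± 0.12). Dppa3, which protects maternal methylation in the zygote, passed at every stage at under 2-fold (753 and 798 CPM in 2-cell controls, 491 and 514 CPM in MERVL-KD embryos, −0.54 ± 0.08, then −0.36 and −0.29). Zfp57 passed at the 2-cell stage (312 and 273 against 197 and 211 CPM, −0.44 ± 0.09) and Trim28 at the 4-cell and 8-cell stages (−0.33 ± 0.09 and −0.57 ± 0.07, the last from 641 and 630 to 426 and 423 CPM). Zfp445 and Dnmt1, the other main reader and the maintenance methyltransferase, did not pass at any stage (0.16, −0.13 and −0.14, and −0.16, −0.12 and −0.09).

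Of 52 other imprinted genes, 3 of 38 tested were called upward and 1 downward in 2-cell embryos, 4 of 36 higher and none lower at the 4-cell stage, and none of 36 at the 8-cell stage, where none passed at any fold. The shares of all genes called upward and downward were 4.37% and 2.24% in 2-cell embryos, and 2.66% and 1.88% in 4-cell embryos. An unadjusted edgeR p under 0.05 was reached downward by 2 genes in 4-cell embryos, and upward by 6 and downward by 1 in 8-cell embryos. Dio3, the thyroid hormone deiodinase at the end of the Dlk1-Dio3 cluster, was at 8.03 and 6.05 CPM in 2-cell MERVL-KD embryos against 0.637 and 0.660 CPM in controls (log2 fold change 3.52 ± 0.32 SE, edgeR adjusted p = 2.28e-06), and at 1.21 and 3.09 against 0.170 and 0.208 CPM at the 4-cell stage (3.49 ± 0.67, adjusted p = 0.00676). Snhg14, the noncoding RNA that runs antisense to Ube3a in neurons, was at 11.6 and 12.6 against 5.61 and 6.74 CPM at the 2-cell stage (1.05 ± 0.20), where Ube3a was lower; the exons of both genes overlap on opposite strands over 8.74% of the bases of Ube3a. The other calls at the 2-cell stage were Kcnk9, a potassium channel gene (40 and 23 counts against 5 and 2, 2.97 ± 0.84), and, lower, the transporter gene Slc22a3 (26 and 42 counts against 79 and 90, −1.39 ± 0.42). At the 4-cell stage Cd81 (48 and 46 counts against 2 and 8, 3.02 ± 0.78) and the zinc finger gene Zfp264 (6.53 and 4.96 against 2.50 and 2.81 CPM, 1.12 ± 0.31) were called. Tnfrsf23, with 16 counts in each MERVL-KD library and 0 in both controls, was called as well. It was at least 4.79-fold higher if each count is a separate fragment, and the bound is a smaller fold if both mates were counted.

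Sites for the 3 ASOs were looked for in GRCm38 with up to 2 mismatches over 20 bases, in the strand the ASO would pair with. None of the 36 imprinted genes held such a site between its first and last exon on either strand, and 0.318% of all 55291 genes held one in the transcribed strand. The nearest site lay 188 kb from Sfmbt2, 392 kb from Cdkn1c, 495 kb from Commd1 and 557 kb from Kcnq1ot1. Arid4a was the gene of the factor and imprinted lists with sites in its transcribed strand, 3 in number, and Snhg14 held 1 site on the opposite strand. The 3 ASOs had 1903 sites in the genome and the scrambled ASO had 1.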

How the data were processed

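Total RNA of pooled control and MERVL-KD embryos was sequenced as 12 libraries, and the other 12 samples of the series (ATAC-seq) were not analysed here. Per the labels and the methods, the authors aligned reads to GRCm38 (mm10) with STAR 2.5.3a, kept unique alignments and deposited raw counts per gene and repeat family from featureCounts (Subread). The strand setting is not given in the sources used here. In each library 71.8% to 74.7% of the counts from 1 to 50 were even, so that both mates of most pairs appear to have been counted, and halved counts were tried. Because reads were unique, retrogenes (Zrsr1, Mcts2, Nap1l5) may be undercounted.

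Counts were fitted with edgeR 4.0.16 (R 4.3.3; filterByExpr, TMM, robust quasi-likelihood test, Benjamini-Hochberg adjustment over all genes and repeat families tested), stage by stage for MERVL-KD against control, over the 6 control libraries for stages, and over all 12 libraries for interactions. A gene was called when its change was at least 2-fold and its adjusted p under 0.05; for interactions the fold was not used. An unadjusted edgeR p under 0.05, in either direction, was reached by 5556 of 20604, 4948 of 19738 and 3582 of 18414 genes for MERVL-KD by stage. For the control 8-cell against 4-cell step 4754 of 21175 genes reached it. CPM used the TMM-scaled library size, and values per kb the exon length in the files. Named genes were those called in any of 7 comparisons or within the top 10 per kb in controls at any stage. Imprinted genes, lists and thresholds were chosen with earlier results of these data known. Alternatives were DESeq2 1.42.0, library size alone, DESeq2 size factors, filters of 1 count or 10 counts in every library, halved counts, a replicate block, a fit of all 12 libraries, any fold, and each library left out. Simulated data had 200 genes changed by 1.5 on the log2 scale, drawn only from rows above a minimum mean count. For the 2-cell, 4-cell and 8-cell comparisons 183, 161 and 170 of the 200 were recovered (8, 3 and 6 false calls). These rates do not apply to imprinted genes with lower counts, such as Commd1. Within groups, libraries differed beyond sampling noise (chi-square per degree of freedom 12.9 to 22.6). The labels give 2 biological replicates a group, without naming the cultures, so that p-values measure the spread between these pools. With 2 libraries a group, values that do not overlap are common without a difference. The share of all genes whose groups did not overlap was not computed. Chromosome lengths of the reference matched the coordinates in the files (0 gene ends beyond a chromosome). Counting limits cover counting error only and treat each count as a separate fragment.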

Additional observations from a re-analysis of the deposited data

Results flagged for a closer look

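The effect of MERVL-KD on 2 imprinted genes differed between stages by the interaction test over 12 libraries. The log2 fold change of Jade1 was −0.69 in 2-cell and 0.45 in 4-cell embryos, each from the fit of its own stage, and their difference was 1.22 in the fit of all 12 libraries (edgeR adjusted p = 0.000243). That of Cdkn1c was 3.33 in 4-cell and 0.73 in 8-cell embryos, with a difference of −2.60 in the fit of all 12 libraries (adjusted p = 0.00549). With 2 libraries a group, no group was large enough for a test of samples that stand apart from the others.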

How the results depend on the processing

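The numbers of imprinted genes called depended on the processing as follows, against 2, 3 and 1 for MERVL-KD by stage in order (2-cell, 4-cell, 8-cell), 17 and 2 for the control stages, and 1 and 1 for the interactions. Library size alone gave 1 at the 2-cell stage (Kcnq1ot1 fell under 2-fold) and 2 for the first interaction. At any fold the numbers were 4, 7 and 2. Features with at least 1 count gave 5 (4-cell) and 2 (8-cell), at least 10 counts in every library gave 2 at the 8-cell stage and 3 for the first interaction, the fit of 12 libraries gave 2 at the 8-cell stage, halved counts gave 2 for the first interaction, and DESeq2 gave 3 and 2 for the interactions. Leaving out each library gave 2 to 2, 3 to 7 and 1 to 3 for MERVL-KD, 15 to 17 and 1 to 3 for the control stages, and 1 to 4 and 1 to 1 for the interactions. The cause of these moves was not tested. No called gene changed sign under any of these alternatives. Of 477 values of single genes recomputed, 459 kept their side of the threshold, 14 lost their call, 13 of them with a library left out, and 4 gained it.

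Replicate numbers did not pair the libraries (correlation of deviations between control and MERVL-KD −0.05, 0.01 and 0.03), and a replicate block gave 5 genes in place of 3 at the 4-cell stage and 2 in place of 1 at the 8-cell stage. Library size alone moved the median log2 fold change of all genes to 0.30 in 2-cell and 0.13 in 8-cell embryos, 0.11 and −0.21 for the control stages and −0.25 for the first interaction, and moved the share of higher among all calls from 66.1% to 85.3%, from 37.7% to 56%, and for the later control step from 30.5% to 8.45% and for the interactions from 60.5% to 15% and from 44% to 57.4%. The median log2 fold change of the imprinted genes by MERVL-KD ranged over the alternatives from −0.18 to 0.31, 0.02 to 0.34 and 0.08 to 0.26 by stage, and that between 2-cell and 4-cell controls from −0.55 to −0.19. Depth kept H19, Nap1l5 and Ndn out of every comparison of MERVL-KD with control.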

Other observations

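Xist, the noncoding RNA of X inactivation, which is paternally expressed in mouse preimplantation embryos, was at 7.38 to 17.0 CPM in the 2-cell libraries. It was at 186 and 348 CPM in the 4-cell controls and 513 and 346 CPM in the 4-cell MERVL-KD libraries. At the 8-cell stage Xist was at 753 and 797 CPM in controls and at 575 and 1630 CPM in MERVL-KD libraries, so that the 2 MERVL-KD pools lay on either side of both controls. None of its comparisons of MERVL-KD with control was called. The share of female embryos in each pool of 30 is not given in the sources used here.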
